A study of Mus musculus with 12 samples.

Results

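Car6, Comp and Scgb1b27 encode proteins that cells release. They were chosen by their symbols, as secreted products with large increases in the mammary tumors of rexinoid-fed mice, and no numeric threshold was set. All 3 were found in the deposited comparison of V-125 with control, which lists 1589 genes, and 2 of them, Car6 and Comp, in that of bexarotene with control, which lists 1784. Because the increase itself chose these genes, their differences from control tumors are given as a description and were not tested. The tumors came from female MMTV-Neu mice, in which the mouse mammary tumor virus promoter drives the Neu (HER2) oncogene in the mammary gland, so that every group carries the transgene. RNA was sequenced from 4 tumors of mice on a control diet, 4 from mice given V-125 and 4 from mice given bexarotene, each compound at 100 mg per kg of diet for 10 days, and age was not given in the sources used here. V-125 and bexarotene are rexinoids, that is, synthetic agonists of the retinoid X receptor (RXR), a nuclear receptor that acts with many partner receptors.

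Carbonic anhydrases interconvert carbon dioxide and bicarbonate. The Car6 product is the secreted form of this family and is best known from saliva and milk. Comp encodes cartilage oligomeric matrix protein, the fifth thrombospondin, which assembles with collagens in the matrix of cartilage and tendon. Scgb1b27 encodes the alpha subunit of the salivary androgen-binding protein, a small secretoglobin that pairs with a subunit from the Scgb2b branch of the family.

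On GRCm38, the build whose GENCODE annotation holds identical coordinates for all 3 genes, Car6 (ENSMUSG00000028972) lies on the minus strand of chromosome 4 from 150187015 to 150201332. Comp (ENSMUSG00000031849) lies on the plus strand of chromosome 8 from 70373558 to 70382066, and Scgb1b27 (ENSMUSG00000066583) on the plus strand of chromosome 7 from 34021483 to 34022881. The longest coding transcripts have 8, 19 and 2 exons. No stretch of 50 bases in the annotated transcripts of Car6, Comp or Scgb1b27 recurs in a transcript of another gene, although Scgb1b27 sits in a large family of related genes.

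The stretches before the RefSeq starts of Car6, Scgb1b27 and Scgb2b27, the neighbouring secretoglobin described further on, are shown because these genes had large differences and the diets held an RXR agonist. RefSeq on GRCm38.p6 gave 250 bases for each, read 5′ to 3′ on the strand of the gene, at chr4:150201136-150201385 (minus strand) for Car6, chr7:34021231-34021480 (plus strand) for Scgb1b27 and chr7:34013943-34014192 (minus strand) for Scgb2b27. The start of Car6 in RefSeq lies inside the gene as GENCODE gives it, so that 197 of the 250 Car6 bases fall within the coordinates above, while the other stretches lie outside their genes. No entry for Comp was used. Capitals mark AGGTCA or, on the opposite strand, TGACCT, the core hexamer of sites bound by RXR and its partners.
Car6: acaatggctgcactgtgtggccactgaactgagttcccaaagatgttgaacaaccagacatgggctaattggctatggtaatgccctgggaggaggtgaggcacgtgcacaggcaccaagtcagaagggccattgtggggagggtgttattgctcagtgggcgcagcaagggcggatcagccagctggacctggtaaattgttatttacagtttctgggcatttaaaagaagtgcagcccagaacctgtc
Scgb1b27: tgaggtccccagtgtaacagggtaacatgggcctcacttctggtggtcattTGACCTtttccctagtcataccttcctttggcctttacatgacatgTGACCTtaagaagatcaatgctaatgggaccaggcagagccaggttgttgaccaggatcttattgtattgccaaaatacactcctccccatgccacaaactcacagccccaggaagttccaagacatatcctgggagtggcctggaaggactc
Scgb2b27: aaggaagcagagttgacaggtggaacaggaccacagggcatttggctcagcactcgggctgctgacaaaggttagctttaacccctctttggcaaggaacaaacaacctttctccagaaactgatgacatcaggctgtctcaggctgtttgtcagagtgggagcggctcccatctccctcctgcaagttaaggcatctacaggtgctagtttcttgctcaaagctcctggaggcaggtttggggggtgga

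The Scgb1b27 stretch holds the hexamer 2 times, from 199 to 194 and from 153 to 148 bases before the start, in each case as TGACCT. The Car6 and Scgb2b27 stretches hold none. Of 32851 upstream stretches of the same length in the RefSeq table, 14.0% hold at least 1 copy on either strand and 1.36% hold 2 or more. These letters are a description and not evidence of binding.

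The depth of the 8 tumors of the V-125 comparison ran from 15571690 to 22574865 reads on genes. Normalized counts, the unit used below, are counts divided by 1 size factor per tumor. Per-tumor values of the bexarotene group were not used here, and only the authors' group means stand for it. Of 7 luminal epithelial markers, Epcam and Cdh1 are listed for V-125, and their summed normalized counts were lower in every V-125-treated tumor, between 34079 and 41053, than in the control tumors, between 43376.5 and 62618. The part of this in the results below was not tested. The other 5 markers are not listed for V-125. All values are from bulk tumor RNA, in which more cells of a type and more RNA per cell cannot be told apart.

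Car6 was high and even in tumors of V-125-fed mice. V-125 replicates 1 to 4 had 38599, 32786, 37209.9 and 40669 normalized counts of Car6. Those of control replicates 1 to 4 were 3298, 2921, 12218 and 3158. Control replicate 3 thus stood well above the other control tumors but below all V-125-treated tumors. The means were 37316 ± 3338 (SD, n = 4) and 5399 ± 4549 (SD, n = 4), a ratio of 6.91, which becomes 11.9 without control replicate 3. Per kilobase of gene length, Car6 stood at 1139 ± 106 FPKM (SD, n = 4) after V-125 and at 165 ± 139 (SD, n = 4) without it. Among the 1589 listed genes it ranked between 5 and 7 by FPKM in every V-125-treated tumor and between 20 and 85 in the control tumors. Its transcripts made up between 0.181% (95% Wilson interval 0.179% to 0.183%) and 0.225% (0.223% to 0.228%) of all reads counted on genes in the V-125-treated tumors. In control tumors the share was between 0.0162% (0.0156% to 0.0168%) and 0.0678% (0.0667% to 0.0688%). These intervals cover counting error only.

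Comp was also abundant with V-125, but its level varied more between tumors. For Comp, V-125 replicates 1 to 4 reached 8382, 21239, 33186.5 and 21612 normalized counts. The control tumors, in the same order, had 791, 7270.0, 4500.4 and 3775. V-125 replicate 1 was the lowest of its group and lay close to control replicate 2, the highest control tumor, and control replicate 1 was far below the other control tumors. The means were 21105 ± 10134 (SD, n = 4) and 4084 ± 2662 (SD, n = 4), a ratio of 5.17. In FPKM the means were 393 ± 188 (SD, n = 4) and 76.3 ± 49.7 (SD, n = 4), with ranks between 11 and 46 in V-125-treated tumors and between 56 and 372 in control tumors.

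Scgb1b27 had the largest ratio of the 3 genes and by far the lowest level. In V-125-treated tumors 1 to 4 it reached 1844, 76.0, 325 and 52.9 normalized counts. The control tumors had 0, 6.94, 17.6 and 11.1. V-125 replicate 1 carried most of the group's total, and the other 3 V-125-treated tumors were still above every control tumor. The means were 574 ± 855 (SD, n = 4) and 8.90 ± 7.37 (SD, n = 4), a ratio of 64.5, which becomes 17.0 without V-125 replicate 1. The control values rest on 0, 6, 22 and 13 reads, and a count of 0 in control replicate 1 allows up to 3.46 normalized counts. In FPKM, Scgb1b27 had 103, 4.17, 17.8 and 2.91 in the V-125-treated tumors and between 0 and 0.970 in control tumors. Its FPKM rank among the listed genes was between 71 and 815 with V-125, so that the gene was abundant in V-125 replicate 1 at most.

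**Figure D1:**
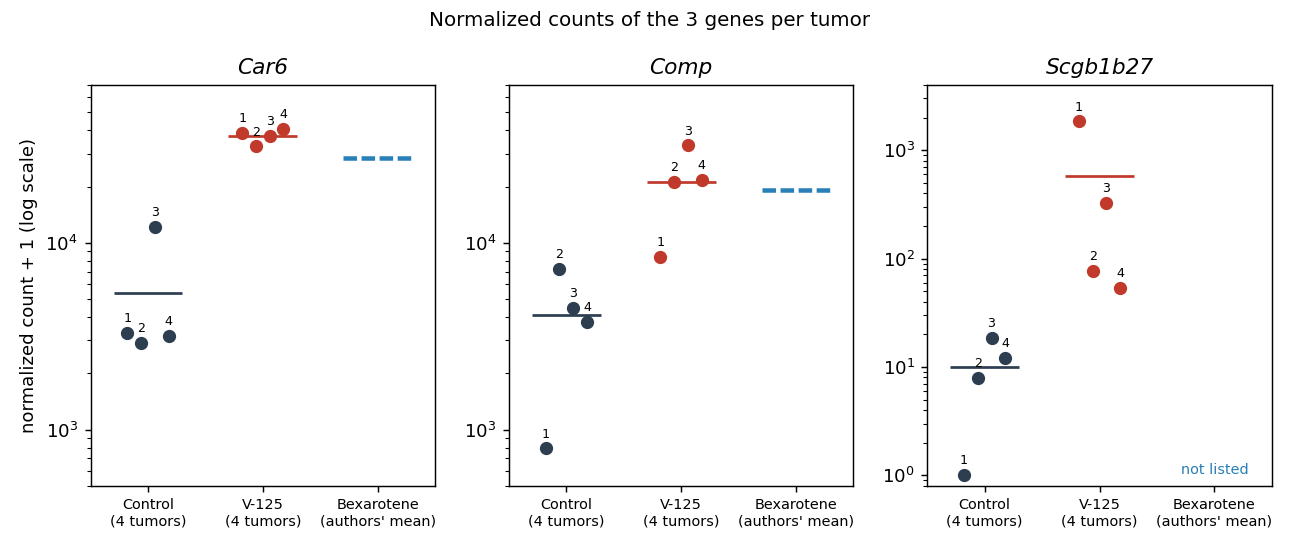
Normalized counts plus 1 of Car6, Comp and Scgb1b27 on a log axis, with 1 point per tumor marked by its replicate number, a solid line at the mean of 4 tumors and a dashed line at the authors' mean for bexarotene. For Car6 the V-125-treated tumors lie together between 32786 and 40669, whereas for Scgb1b27 they spread from 52.9 to 1844.

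None of the 3 genes had overlapping groups, which was also the case for 21.1% of the 1589 listed genes with V-125 higher and for 17.6% with V-125 lower. Since the increase chose the genes, nothing is read from this count. By the ratio of mean normalized counts plus 1, Scgb1b27 ranked 3, Car6 45 and Comp 93 among the 1589 genes. The log2 fold changes fitted with edgeR were 2.79 (standard error 0.47) for Car6, 2.37 (0.61) for Comp and 5.93 (1.31) for Scgb1b27.

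The 3 genes differed in how evenly the tumors of a group expressed them. On the scale of log2(normalized count + 1), the SD over V-125-treated tumors was 0.13 for Car6, 0.84 for Comp and 2.32 for Scgb1b27, where the median of 1372 listed genes with a mean of at least 10 was 0.39. In control tumors these SDs were 0.99, 1.39 and 1.87, with a median of 0.40. Car6 thus ranked 139 from the lowest spread with V-125 but 145 from the highest spread in control tumors. The control spread of Car6 rests on replicate 3, at 12218 normalized counts, while the other control tumors lay between 2921 and 3298. It is therefore not read as a less even level of Car6 without V-125. Scgb1b27 ranked 10 and 20 from the highest spread in V-125-treated and control tumors, and Comp ranked 247 and 62. Leaving control replicate 3 out of the comparison changed the edgeR log2 fold change of Car6 to 3.58 (standard error 0.19).

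**Figure D2:**
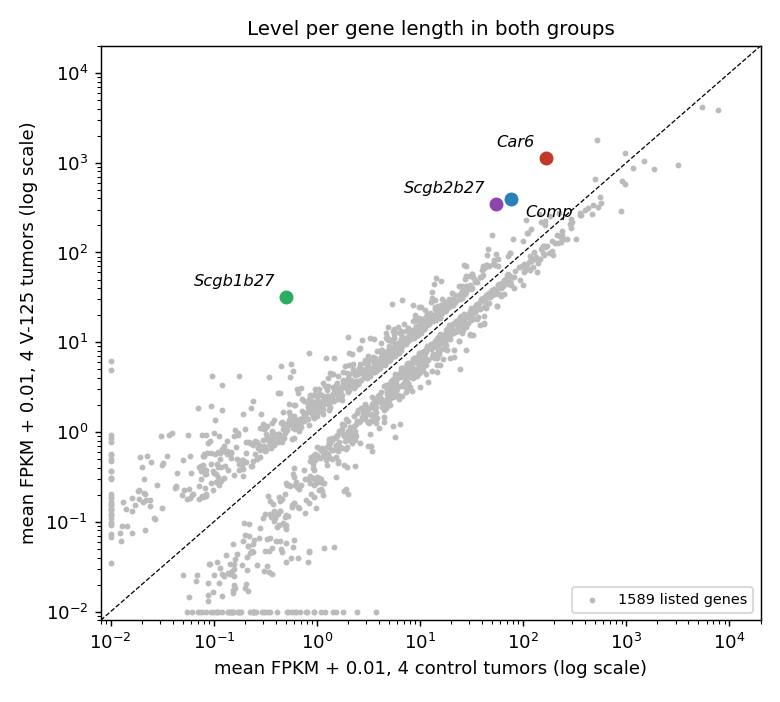
Mean FPKM plus 0.01 of each of the 1589 listed genes in 4 control tumors (x axis) and 4 V-125-treated tumors (y axis), both on log scales, with equal levels on the dashed line. Car6 and Comp lie near the top of the range at 1139 and 393 FPKM with V-125, and Scgb1b27 lies farther from the line at 31.9 FPKM, from 0.491 in control tumors; Scgb2b27 is described further on, and genes close to the line are not listed.

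With bexarotene, the authors' mean normalized counts were 28429 for Car6 and 5372 in the control tumors of that table, a ratio of 5.29. For Comp they were 19204 and 4060, a ratio of 4.73. These ratios stand beside 6.91 and 5.17 with V-125, at the same dose in the diet and the same duration, but both comparisons use the same control tumors and each table was normalized separately. The control means of the tables differed by a factor of 1.005 for Car6 and 1.006 for Comp. By its mean, Car6 ranked 8 and Comp 12 among the 1784 genes listed for bexarotene, and by the ratio of means plus 1 they ranked 71 and 93. The bexarotene mean of Car6 lay below the lowest V-125-treated tumor, at 32786, and that of Comp lay within the range of the V-125-treated tumors. Scgb1b27 is not listed for bexarotene, a table that stops at an unadjusted p-value of 0.05, and its level there was not analysed here. No difference between V-125 and bexarotene could be tested with means alone.

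Among the other genes of the secretoglobin family, Scgb2b27 was the only one listed. Of the 34 secretoglobin genes annotated as protein-coding, Scgb1b27 and Scgb2b27 are listed for V-125 and Scgb2b27 alone for bexarotene. Scgb2b27 encodes a subunit of the branch that pairs with the Scgb1b branch, and it is the nearest secretoglobin on that side of Scgb1b27. It lies on the opposite strand from 34011921 to 34013942, with 7540 bases and no other secretoglobin gene in between. V-125 replicates 1 to 4 contained 27005, 4339.9, 5143 and 3109 normalized counts of Scgb2b27. The control tumors contained 2539, 887, 2069 and 670.1. No smaller p-value can come from 4 against 4 tumors. V-125 replicate 1 was the highest tumor for both genes, while control replicate 1 had the most Scgb2b27 of its group and no Scgb1b27 reads. The means were 9899 ± 11434 (SD, n = 4) and 1541 ± 906 (SD, n = 4), and the groups did not overlap (p = 0.0286, two-sided exact permutation). Every listed gene had passed an unadjusted p-value of 0.05 on this same contrast. Selection thus favours small p-values, here and in the paragraphs below. Without V-125 replicate 1 the ratio of means was 2.72 in place of 6.42. With bexarotene the authors' means were 8002 and 1534, a ratio of 5.22. Per kilobase, Scgb2b27 exceeded Scgb1b27 in all 7 tumors with reads of both, by 9.37, 36.5, 10.1 and 37.6 times in the V-125-treated tumors and by 81.8, 75.3 and 38.6 times in control replicates 2 to 4. Of the 50-base stretches of Scgb2b27, 1.86% recur in other Scgb2b genes, so a few of its reads could belong to these.

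Markers of other cell types were read beside the 3 genes. Cd2 encodes an adhesion molecule of T and NK cells. It is among the genes picked further on for likeness to Scgb1b27, so that likeness is no separate result. Cd2 had 195, 10.4, 23.8 and 3.17 normalized counts in the V-125-treated tumors, given by replicate number, and 0, 1.16, 5.59 and 0.854 in the control tumors. The order of the V-125-treated tumors was the same for Cd2 and Scgb1b27, with only 3 reads of Cd2 in replicate 4. In the control tumors Cd2 rests on 0, 1, 7 and 1 reads, too few to order them. Cd2 was the only listed gene of 4 T cell markers, so the summed level of the list is that of Cd2, and Cd3e, Cd3d and Cd4 are not listed. Values of Cd2 in the 2 groups overlapped (p = 0.0571, two-sided exact permutation). Whether T cells had a part in the Scgb1b27 values was not tested. For V-125, 2 of 6 myoepithelial markers are listed, both with lower means (median log2 ratio −1.77) and overlapping groups, and their summed normalized counts were between 97.3 and 609 with V-125 and between 525 and 1032 in control tumors. The 1 listed gene of 5 skeletal muscle markers had between 0 and 20.9 normalized counts with V-125 and 0 in every control tumor. None of 5 adipocyte or 3 macrophage markers is listed for V-125. For bexarotene, 1 adipocyte marker is listed with a higher mean and 2 macrophage markers with lower means.

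**Figure D3:**
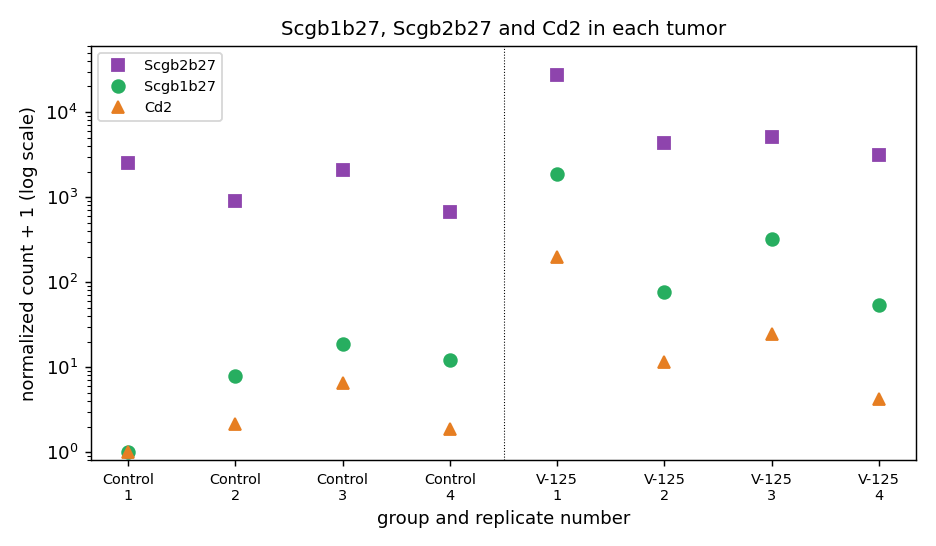
Normalized counts plus 1 of Scgb1b27, Scgb2b27 and the T cell gene Cd2 in each of the 8 tumors, on a log axis. All 3 genes peak in V-125 replicate 1, at 1844, 27005 and 195, and Scgb2b27 exceeds Scgb1b27 in every tumor.

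Because Car6 and Scgb1b27 are products of salivary glands, a list of 18 salivary and lacrimal gland genes was examined. Egf (epidermal growth factor), Bhlha15 (a transcription factor of secretory cells) and Amy1 (amylase) are listed for V-125. All 3 had higher means with V-125, and all 3 had overlapping groups (p = 0.0571, 0.0571 and 0.0857, two-sided exact permutation). Their summed normalized counts were between 3433 and 7516 in V-125-treated tumors and between 2788 and 4383 in control tumors, whereas Bpifa2, Smgc, Muc19, Prol1 and Pip are not listed. For bexarotene, Egf, Bhlha15 and Odam are listed, with ratios of the authors' means of 2.19, 1.60 and 3.20. The part of salivary tissue in the Car6 and Scgb1b27 values was not tested.

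Of 16 carbonic anhydrase genes, 4 are listed for V-125, Car6 and Car12 with a higher and Car2 and Car9 with a lower mean. Car9, a membrane-bound enzyme known as a hypoxia marker, was lower in every V-125-treated tumor, at 309 ± 74.9 (SD, n = 4) normalized counts against 629 ± 196 (SD, n = 4) in controls (p = 0.0286, two-sided exact permutation). Car12, another membrane-bound enzyme, averaged 7494 ± 2441 (SD, n = 4) after V-125, against 4134 ± 1240.2 (SD, n = 4) in controls, with overlap (p = 0.0571, two-sided exact permutation). The cytosolic Car2 had 2774 ± 1494 (SD, n = 4) and 4544 ± 932 (SD, n = 4), again with overlap (p = 0.114, two-sided exact permutation). By FPKM, Car6 was the most abundant listed carbonic anhydrase with V-125, at 1139 against 63.3 for Car2, 54.7 for Car12 and 7.43 for Car9. In control tumors the mean of 165 FPKM for Car6 rests on replicate 3, and the other 3 tumors, between 89.2 and 101 FPKM, lay near the Car2 mean of 104. The authors' means for bexarotene gave ratios of 1.43 for Car12 and 0.577 for Car9, and Car2 is not listed there. Over the 4 genes listed for V-125 the median log2 ratio of means was 0.07, beside 0.34 over all 1589 listed genes.

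Of 18 genes of acid-base transport, 2 are listed for V-125, both with higher means. Slc4a3, an anion exchanger, averaged 916 ± 234 (SD, n = 4) after V-125, against 551 ± 73.8 (SD, n = 4) in controls, with overlap (p = 0.0571, two-sided exact permutation). For bexarotene 4 others are listed, Slc26a9 with a ratio of the authors' means of 1.56 and Slc16a1, Slc16a3 and Atp6v1b1 with ratios of 0.513, 0.106 and 0.632.

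Comp was the only thrombospondin listed in either table, of 5 in the family. Among 27 genes of cartilage matrix and COMP partners, 4 are listed for V-125, and all 4 had lower means with V-125, in contrast to Comp. Col11a1, a fibrillar collagen chain of cartilage, was at 2743 ± 1122 (SD, n = 4) normalized counts with V-125 against 6938 ± 3714 (SD, n = 4), and Hapln3, a hyaluronan and proteoglycan link protein, at 13.5 ± 7.09 (SD, n = 4) against 69.5 ± 40.1 (SD, n = 4). Neither gene's groups overlapped (p = 0.0286, two-sided exact permutation). Col9a2, a collagen chain of cartilage, and Matn2, a matrilin, had ratios of means of 0.668 and 0.270, with overlapping groups (p = 0.0571 and 0.0857, two-sided exact permutation). The median log2 ratio over these 4 genes was −1.60. For bexarotene 5 genes of the list are listed. Chad, a leucine-rich matrix protein of cartilage, had a ratio of the authors' means of 2.27, and Col11a2, Matn2, Matn4 and Hapln3 had ratios between 0.134 and 0.642. Of 9 cartilage markers, none is listed for V-125 and 2 for bexarotene, which are Chad and Col11a2. Of 9 fibroblast markers, none is listed for V-125. Of 13 genes of TGF-beta responsive matrix, Tgfb3 alone is listed, with a lower mean and overlapping groups for V-125.

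**Figure D4:**
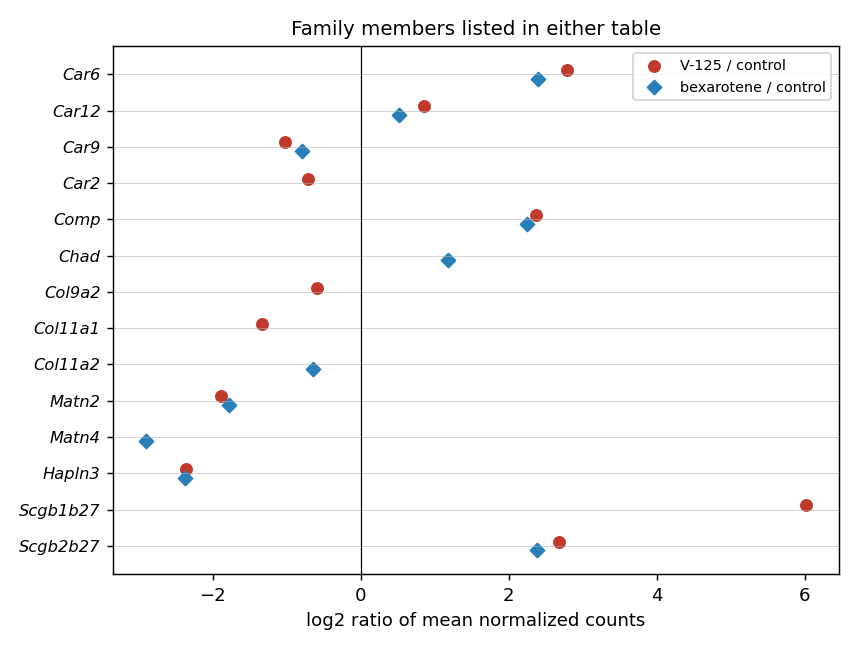
The log2 ratio of mean normalized counts to control for V-125 (circles) and bexarotene (diamonds) in listed genes of the carbonic anhydrase, thrombospondin, cartilage matrix and secretoglobin lists, where a missing symbol means that the gene is not listed. Car6, Comp and Scgb2b27 have values above 2 with both compounds, while the listed cartilage matrix genes other than Comp and Chad lie below 0.

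Car6 protein is also found in milk. Of 15 milk genes, Csn1s1, Mfge8 and Wap are listed for V-125, all with lower means. Csn1s1 (alpha-S1-casein) had 106078 ± 101399 (SD, n = 4) normalized counts with V-125 against 353185 ± 114068 (SD, n = 4), with no overlap (p = 0.0286, two-sided exact permutation). For bexarotene 5 milk genes are listed, all with lower means. Epcam, a surface protein of epithelial cells, was likewise lower, at 32209 ± 2776 (SD, n = 4) against 42502 ± 7390 (SD, n = 4), with no overlap (p = 0.0286, two-sided exact permutation). Over all lists examined, 3 genes other than Car6, Comp and Scgb1b27 were higher with V-125 without overlap, among them Scgb2b27 and the endothelial receptor gene Kdr. The 5 that were lower without overlap were Car9, Col11a1, Hapln3, Csn1s1 and Epcam. Among all 1589 listed genes, 21.1% were higher and 17.6% lower without overlap, so nothing is read from these counts about the lists. All 8 reached the smallest p-value the design allows, as every gene without overlap does, without adjustment over genes. They had been selected on this same difference. With Benjamini-Hochberg adjustment in edgeR, none of the 1333 fitted genes passed 0.05, while 489 higher and 464 lower genes had an unadjusted p-value under 0.05.

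The genes whose values over the 8 tumors were most like those of each of the 3 genes were found by Pearson's correlation of log2(normalized count + 1). All listed genes had been selected on a difference between the groups, which raises such correlations. The correlation of deviations from the group means is therefore given beside the first value. The genes were picked by the first value and both use the same 8 tumors, so the second is no independent check. It can rest on an outlying tumor, such as control replicate 3 for Car6. Spearman's correlation kept 0 of the genes picked for Car6, 1 for Comp and 0 for Scgb1b27. Picking by deviations kept 2, 0 and 2. For Car6 the closest were Atp13a2 (a lysosomal transporter), with 0.99 over all 8 tumors and 0.93 for deviations, Plcxd2 with 0.99 and 0.92, Cd44 (a hyaluronan receptor) with 0.97 and 0.82, the histone gene Hist1h4d with 0.96 and 0.97, and Cd300lg with 0.96 and 0.76. For Comp they included Kdr (a VEGF receptor of endothelial cells), with 0.97 and 0.91, Utp14b with 0.95 and 0.89, Ehhadh with 0.95 and 0.89, and Btnl9 with 0.95 and 0.87. Ehhadh encodes an enzyme of fatty acid oxidation in peroxisomes. Kdr was the only listed gene of 3 endothelial markers, at 539 to 835 normalized counts in the V-125-treated and 251 to 498 in the control tumors, while Pecam1 and Cdh5 are not listed, and the part of endothelial cells in the Comp values was not tested. For Scgb1b27 they were Abi3 with 0.97 and 0.94, Gltp with 0.97 and 0.97, Doc2b with 0.95 and 0.88, Gne (an enzyme of sialic acid synthesis) with 0.95 and 0.92, and Cd2 with 0.95 and 0.91.

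Car6, Comp and Scgb1b27 did not share 1 pattern across the tumors of a group. The correlations over all 8 tumors were 0.77 for Car6 and Comp, 0.83 for Car6 and Scgb1b27 and 0.72 for Comp and Scgb1b27, but those of the deviations from the group means were 0.14, 0.33 and 0.20. Scgb1b27 and Scgb2b27 had 0.78 and 0.44. Of the listed genes, those with the highest mean FPKM were mt-Co1, Wfdc18 and Scd1 with V-125, at 4182, 3829 and 1809, and Wfdc18, mt-Co1 and Csn1s1 in control tumors, at 7779, 5432 and 3138.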

How the data were processed

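Tumor RNA was enriched for poly(A) transcripts before sequencing. The submitters' processing notes name STAR 2.6.1d, featureCounts 1.5.0-p3 and limma, and the genome build is not given in the sources used here. For the V-125 comparison, the deposited table of the authors holds read counts per gene and tumor, normalized counts (a signal made by dividing by a size factor) and FPKM, and for both comparisons the group means of normalized counts. The authors' deposited p-values and adjusted p-values served here only to find that both tables stop at 0.05 and that 15310 tests lie behind the V-125 table. The fold changes and −log10 values were not used.

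Groups and replicate numbers came from the labels. The genes and lists were chosen with earlier results of these data known. Reads counted on genes were recovered from counts, FPKM and gene length. Single genes other than Car6, Comp and Scgb1b27 were compared by two-sided exact permutation tests over the 70 assignments of 8 tumors, without adjustment over genes, and all listed genes had been selected on this difference. Counts were fitted with edgeR 4.0.16 (quasi-likelihood test after filterByExpr, size factors of the authors), with Benjamini-Hochberg adjustment over 15310 tests, and with DESeq2 1.42.0 and limma-voom (limma 3.58.1) in R 4.3.3 as alternatives. These fits estimate spread from selected genes. Other values used Python 3.11.15, numpy 2.4.6, scipy 1.17.1 and pandas 2.3.3. Named genes are Car6, Comp and Scgb1b27, all listed genes of the carbonic anhydrase, thrombospondin, secretoglobin, cartilage, acid-base and salivary lists, those of other lists without overlap, the 5 genes most like each of the 3 and the 3 with the highest mean FPKM per group. Cdh1, Mfge8, Wap and Tgfb3 are named beyond this rule. Some genes under this rule are not reported here. Annotation was GENCODE M21. Depth limits Scgb1b27, with at most 22 reads in a control tumor.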

Additional observations from a re-analysis of the deposited data

Results flagged for a closer look

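In groups of 4 tumors, a tumor was singled out when its gap to the nearest of the others exceeded Dixon's 95% critical value as a share of the group's range. For normally distributed values, chance gives this in about 1 in 20 groups. The rule was applied to normalized counts and not to their logs, so that rate need not hold here. The number of tumors singled out is therefore not weighed against it. Of 40 groups of 20 genes, 6 had such a tumor. For Car6 it was control replicate 3 at 12218 normalized counts. For Scgb1b27 it was V-125 replicate 1 at 1844, which was also singled out for Scgb2b27 at 27005 and for Cd2 at 195. Control replicate 1 was singled out for Matn2 at 323 and for Epcam at 53468.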

How the results depend on the processing

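With edgeR's quasi-likelihood test, 0 of 1333 fitted genes had an adjusted p-value under 0.05, with 489 higher and 464 lower at an unadjusted p under 0.05, and limma-voom also gave 0. TMM factors from the listed genes changed the share of higher genes among the latter from 51.3% to 38.3%. DESeq2 called 71 genes higher and 53 lower, and edgeR adjusted over the listed genes alone called 68 and 52. With each tumor left out, edgeR called 0 to 1 higher and 0 lower; the 1 gene, without control replicate 3, was Car6, which gives no support since the increase chose it. Listed genes without overlap were then 382 to 431 higher and 306 to 437 lower (437 without control replicate 3), from 335 and 279. Fixed list genes without overlap were 3 to 6 higher (6 without V-125 replicate 2 or control replicate 3, 5 without V-125 replicate 3) and 5 to 10 lower (10 without control replicate 3), from 3 and 5; fewer tumors make separation more frequent. The log2 fold change was 2.58 to 3.58 for Car6, 2.03 to 2.80 for Comp and 4.01 to 6.48 for Scgb1b27, lowest for Scgb1b27 without V-125 replicate 1, and group medians gave Car6 3.55. Of the 5 genes most like each, Spearman's correlation kept 0 for Car6, 1 for Comp and 0 for Scgb1b27, and deviations from group means kept 2, 0 and 2; the cause was not tested. Equal replicate numbers are different mice. Deviations of same-numbered tumors correlated between −0.17 and 0.09, and 1 of the 4 V-125-treated tumors matched its own number best. The number was therefore used as a label, and whether same-numbered tumors shared a batch was not tested. With the replicate block edgeR called 0 genes. The log2 fold changes were then 3.11 for Car6, 2.59 for Comp and 4.53 for Scgb1b27. Their standard errors were 0.40, 0.32 and 1.23, against 0.47, 0.61 and 1.31 without the block. In all, 108 of 126 values stayed within the tolerance set for their kind, and 18 moved. A direction could reverse only for the log2 fold changes of Car6, Comp and Scgb1b27. Since the increase chose these genes, nothing is read from the lack of a reversal.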
